A study of Mus musculus with 8 samples.

Results

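The 33 genes described here encode the vacuolar H+-ATPase (V-ATPase) and the proteins that work in the lysosome it acidifies. They were taken by symbol from the 55450 genes of the deposited matrix, and all 33 were found. They are 14 subunits of the pump and 2 accessory subunits, 4 membrane and cholesterol export proteins, and 13 hydrolases, activators, channels and regulators. Single liver cells were measured in 8 C57BL/6 wild-type mice. The 2 control mice had a normal diet and drinking water, the 3 HFD+F+CCl4 mice had a high-fat diet, fructose solution and intraperitoneal CCl4, and the 3 WD+F+CCl4 mice had a western diet with the same fructose and CCl4. Both models are called NASH mice below, CCl4 was part of both, and no group received a diet or CCl4 alone, so the effects of diet, fructose and CCl4 cannot be told apart. The comparison asks whether the lysosomal machinery differs between normal and NASH livers, and in which cells.

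The V-ATPase pumps protons into the lysosome and is built of a cytosolic V1 sector, which hydrolyses ATP, and a membrane V0 sector, through which protons pass. Acid-dependent hydrolases inside then break down glycans, lipids and proteins, while LAMP1 and LAMP2 line the membrane and NPC1 with NPC2 passes cholesterol out. TFEB is a transcription factor known to bind E-boxes of lysosomal promoters and to raise many of these genes together, and liver macrophages, including the resident Kupffer cells, are known for their large lysosomal capacity.

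The libraries were made from dissociated liver after removal of red blood cells and dead cells, with a 3′ kit that counts unique molecular identifiers (UMIs), so a level is not scaled by transcript length. The 8 libraries held 6135827 UMIs (control replicate 2) to 64855024 UMIs, and 80474 of 88581 barcodes had more than 500 genes and under 25% mitochondrial UMIs. Between 1.69% and 2.40% of a library's kept barcodes were also found in another library. Levels are UMIs summed over the cells of one class in one mouse, per 1000000 UMIs of that class (CPM), and classes with under 20 cells in a mouse were left out for that mouse. In such sums, fewer expressing cells and less RNA per cell cannot be told apart. Classes were named from their markers after clustering. Clusters 26 and 27, led by hepatocyte genes and each made almost wholly of cells of one control mouse, stayed unnamed and entered no class. A list of 12 genes for proteins that hepatocytes secrete, which marks free RNA in other cells, summed in mononuclear phagocytes to 1827 and 1838 CPM in the control mice and 221 to 1323 CPM in the NASH mice, and a list of 7 genes induced by dissociation to 524 and 580.1 CPM in the control mice and 571 to 4494 CPM in the NASH mice, with the highest value in HFD+F+CCl4 replicate 1.

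The members lay on 16 chromosomes, with up to 6 on one, and some of their promoters shared a motif. Windows of 250 bases before to 50 after a RefSeq start (GRCm38.p6) were given for 26 of the 33 genes. Both strands read the same for the E-box CACGTG and for its longer form TCACGTGA, which holds the E-box inside it. The E-box stood in 8 of 31 member windows (25.8%) and in 7.15% of all 32851 windows, and the longer form in 5 (16.1%) and 0.974%. The holders were Lamp1 with 4 E-boxes, Gla, Mcoln1 and Atp6v0b with 2 each, and Atp6v0d1, Atp6v0e, Atp6v1a and Glb1 with 1 each. The windows of Lamp1, Gla, Mcoln1 and Atp6v0d1 are shown because these 4 genes stand for 4 roles in the lysosome and recur in the comparisons. They lie at chr8:13158911-13159180, plus strand (Lamp1), at chrX:134600986-134601255, minus strand (Gla), at chr8:3500269-3500538, plus strand (Mcoln1) and at chr8:105566045-105566314, minus strand (Atp6v0d1). Each is printed 5′ to 3′ on its gene's strand, from 250 bases before the start to 20 after it, with E-boxes or their longer form in capitals, and a match is a description of the letters and not evidence of binding.
Lamp1: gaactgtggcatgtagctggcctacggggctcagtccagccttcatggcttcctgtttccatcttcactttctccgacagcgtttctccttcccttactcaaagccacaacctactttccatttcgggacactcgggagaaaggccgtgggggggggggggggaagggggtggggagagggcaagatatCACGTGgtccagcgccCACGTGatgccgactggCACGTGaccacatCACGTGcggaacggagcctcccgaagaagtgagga
Gla: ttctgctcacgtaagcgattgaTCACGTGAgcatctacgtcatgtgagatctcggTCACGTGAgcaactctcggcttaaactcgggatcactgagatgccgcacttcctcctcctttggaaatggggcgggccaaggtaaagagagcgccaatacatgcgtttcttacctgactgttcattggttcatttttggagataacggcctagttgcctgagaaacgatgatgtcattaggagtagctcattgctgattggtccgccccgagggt
Mcoln1: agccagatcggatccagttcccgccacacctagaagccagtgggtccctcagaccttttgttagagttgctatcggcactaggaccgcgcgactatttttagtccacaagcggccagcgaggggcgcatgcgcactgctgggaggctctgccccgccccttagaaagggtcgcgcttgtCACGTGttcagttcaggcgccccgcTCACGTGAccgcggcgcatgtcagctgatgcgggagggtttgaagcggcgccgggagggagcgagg
Atp6v0d1: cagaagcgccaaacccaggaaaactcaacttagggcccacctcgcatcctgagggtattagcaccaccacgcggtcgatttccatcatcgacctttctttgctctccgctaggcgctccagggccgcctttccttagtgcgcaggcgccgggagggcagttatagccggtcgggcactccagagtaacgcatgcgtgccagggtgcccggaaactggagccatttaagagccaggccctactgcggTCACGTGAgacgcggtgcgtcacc
The 4 E-boxes of Lamp1 began 61, 45, 28 and 15 bases before the start, both long forms of Gla stood farther out, with E-boxes that began 227 and 194 bases before it, and the E-box of Atp6v0d1 began 3 bases before it. Gene bodies, in GENCODE vM21 on GRCm38, were at chr8:13159161-13175338 for Lamp1, chrX:134588149-134601125 for Gla, chr8:3500457-3515232 for Mcoln1 and chr8:105524465-105566047 for Atp6v0d1.

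Across cell classes the summed level of the 33 genes was highest in Kupffer cell-like cells, at a median of 19553 CPM (range 16262 to 21951, 5 mice), and in macrophage-like cells, at 17096 CPM (15664 to 20359, 6 mice). These 2 ranges overlapped, and no control mouse had 20 cells of either class. The monocyte-macrophage cluster 0, led by Cxcl10 and Cxcl9, followed at 14668 CPM and classical monocyte-like cells at 12576 CPM. Plasmacytoid DC-like, patrolling monocyte-like, neutrophil-like, DC-like and endothelial cell-like cells lay between 7719.6 and 9953 CPM, with overlapping ranges. NK cell-, B cell-, cholangiocyte- and T cell-like cells were lowest, with T cell-like cells at 4494 CPM (3064 to 5808, 8 mice). These levels are described over mice of all groups and were not tested between classes.

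**Figure D1:**
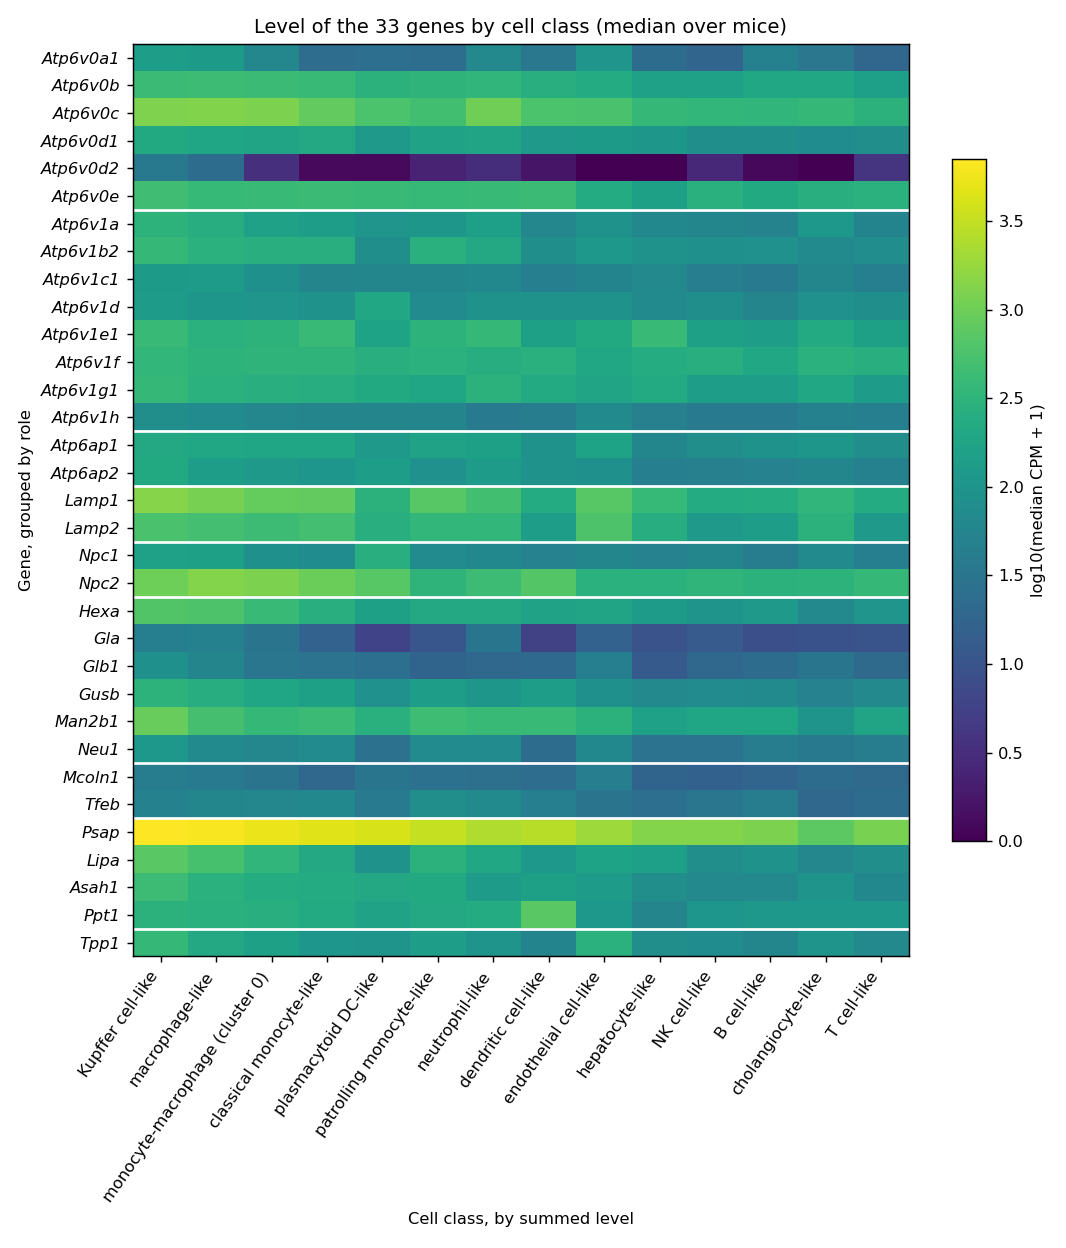
Median level over mice of each of the 33 genes (rows, grouped by role, white lines between roles) in each cell class (columns, in the order of the summed level), as log10(CPM + 1) in colour. Psap is the brightest row in every class, Atp6v0d2 is dark outside the Kupffer cell-like and macrophage-like columns, and Ppt1 is brightest in dendritic cell-like cells.

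Psap, which encodes the precursor of the saposins that help sphingolipid hydrolases, carried the largest part of every sum, from a median of 16.6% of it in cholangiocyte-like to 43.7% in plasmacytoid DC-like cells. Its median level was highest in Kupffer cell-like cells, at 7074 CPM (4836 to 8772, 5 mice), and lowest in cholangiocyte-like cells, at 759.8 CPM (567 to 1449.8, 7 mice). Kupffer cell-like cells held the highest median of 21 members and macrophage-like cells that of 5, mostly with ranges that overlapped each other. The Kupffer cell-like level stood clear of the class with the next highest median for 8 genes. Lamp1 stood at 1398 CPM (1315 to 1591, 5 mice) in Kupffer cell-like and at 1131 CPM (936 to 1275, 6 mice) in macrophage-like cells. The glycosidase gene Man2b1 stood at 893 CPM (630.2 to 1092, 5 mice) and 523 CPM (484 to 592, 6 mice) in the same classes, and the ceramidase gene Asah1 at 428 CPM (323 to 461, 5 mice) and 287 CPM (212 to 315, 6 mice). The peptidase gene Tpp1 stood at 359.9 CPM (343 to 415, 5 mice), and its next class was endothelial cell-like, at 282 CPM (155 to 294, 7 mice). The others were Glb1, Neu1, Atp6ap2 and Atp6v1g1. Of these, Atp6v1g1 reached 356 CPM in macrophage-like cells, inside its Kupffer cell-like range of 329 to 412 CPM. Neu1 reached 99.9 CPM in patrolling monocyte-like cells, inside its Kupffer cell-like range of 93.9 to 116 CPM. Beside Psap, the 3 highest members of a class were mostly Npc2, Atp6v0c or Lamp1, with Ppt1 in dendritic cell-like, Lamp2 in endothelial cell-like and Atp6v1e1 in hepatocyte-like cells as exceptions, and the 3 lowest were Atp6v0d2 with Gla, Mcoln1, Glb1, Atp6v0a1 or Tfeb.

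7 members peaked elsewhere. Ppt1, which encodes palmitoyl-protein thioesterase, was highest in dendritic cell-like cells at 730.4 CPM (355 to 870.1, 8 mice), and the low end of that range, from WD+F+CCl4 mice, overlapped the Kupffer cell-like level of 300.4 CPM (259 to 366, 5 mice). Npc1, the membrane partner in cholesterol export, was highest in plasmacytoid DC-like cells at 263 CPM (189 to 319, 8 mice), with the Kupffer cell-like range overlapping its lowest value. The V1 subunit gene Atp6v1d was also highest there, at 194 CPM (184 to 226, 8 mice), clear of the Kupffer cell-like 132 CPM (129.7 to 149, 5 mice). Its V1 partner Atp6v1e1 peaked in hepatocyte-like cells at 409.6 CPM (135 to 596, 7 mice), Tfeb in patrolling monocyte-like cells at 78.2 CPM (27.4 to 107, 7 mice), and Lamp2 and the calcium channel gene Mcoln1 in endothelial cell-like cells at 601 CPM (281 to 756, 7 mice) and 43.3 CPM (34.7 to 58.4, 7 mice). For these 4 the next class overlapped the highest. Over NASH mice alone the Lamp2 median was higher in Kupffer cell-like cells, at 562 CPM (516 to 734), than in endothelial cell-like cells.

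Within the pump the subunits were far from equal in every class. In macrophage-like cells the proteolipid subunit gene Atp6v0c stood at 1336 CPM (1244 to 1489.7), while Atp6v0b, its homologue in the ring, stood at 428 CPM (388 to 489.8) and the V1 subunit gene Atp6v1h at 70.2 CPM (63.9 to 115). Atp6v0c has 2 annotated pseudogene copies, which held 0 to 3 and 0 to 28 UMIs per library in all kept cells, so reads split between copies leave its level somewhat uncertain. The 14 sector subunits summed to 4325 to 5021 CPM in Kupffer cell-like cells and to 1363 to 1845 CPM in T cell-like cells.

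Atp6v0d2, the alternative d subunit best known from osteoclasts and macrophages, was the lowest member in each of the 14 classes, and its level was far higher in macrophage-like and Kupffer cell-like cells than elsewhere. Macrophage-like cells held 86.4, 24.8 and 19.8 CPM of it in the HFD+F+CCl4 mice and 18.9, 7.96 and 29.8 CPM in the WD+F+CCl4 mice. Kupffer cell-like cells held 38.8, 18.5 and 124 CPM and, in WD+F+CCl4 replicates 2 and 3, 31.3 and 35.1 CPM. HFD+F+CCl4 replicate 1 was the high mouse in macrophage-like cells, and replicate 3, with 33 cells, in Kupffer cell-like cells. In cluster 4 alone, whose leading genes include Gpnmb and Trem2, replicate 1 reached 174 CPM against 8.09 to 31.7 CPM in the other mice. Its housekeeping counterpart Atp6v0d1 varied far less over classes, from 72.5 CPM (55.3 to 99.1) in cholangiocyte-like to 220.3 CPM (164 to 249, 5 mice) in Kupffer cell-like cells. Cluster 0 held 0 to 5.38 CPM of Atp6v0d2 and classical monocyte-like cells 0 to 4.79 CPM, and HFD+F+CCl4 replicate 1 also had the most in T cell-like (43.4 CPM) and hepatocyte-like cells (29.7 CPM).

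**Figure D2:**
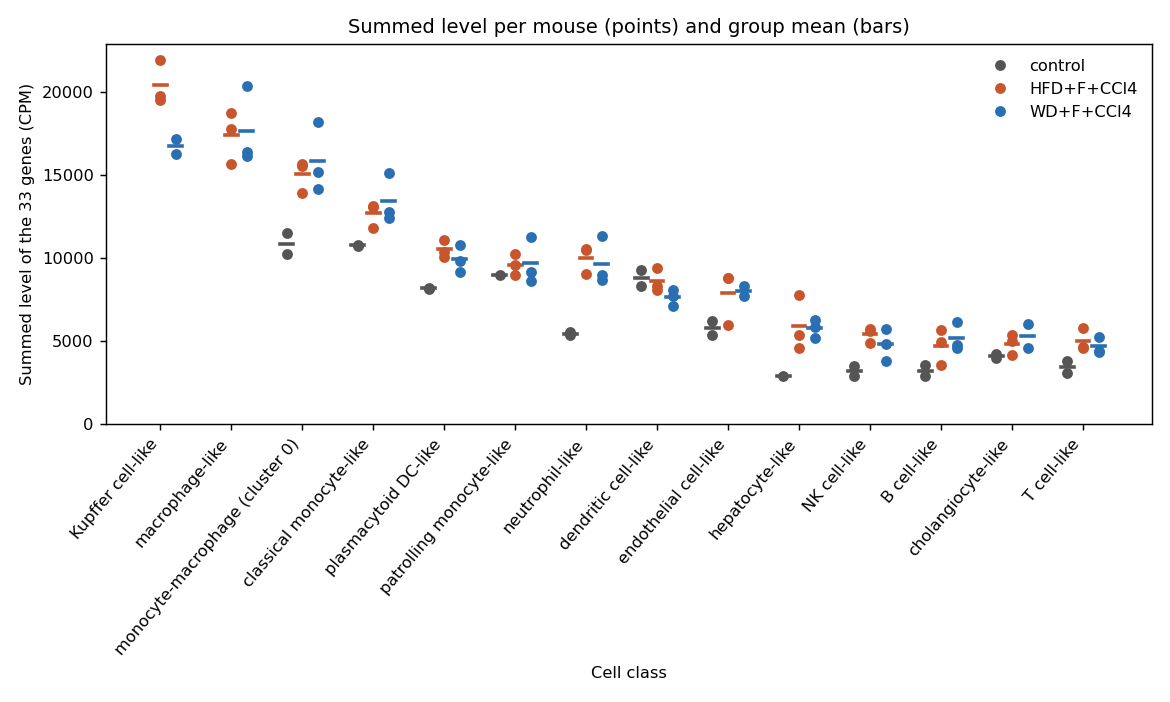
Summed level of the 33 genes in CPM (vertical axis, from 0) in each cell class (horizontal axis), with 1 point per mouse with at least 20 cells and a bar at the group mean, by group in colour. Control points lie below all NASH points in classical monocyte-, neutrophil- and T cell-like cells, among them in dendritic cell-like cells, and are absent in Kupffer cell-like and macrophage-like cells.

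The mononuclear phagocytes as a whole were the monocyte-, macrophage-, Kupffer cell- and DC-like cells other than plasmacytoid. In them 10 members rose in HFD+F+CCl4 and 19 in WD+F+CCl4 mice. The summed level was 9841 and 9952 CPM in the control mice, 16232, 14746 and 11593 CPM in the HFD+F+CCl4 mice and 16102, 12809 and 14305 CPM in the WD+F+CCl4 mice, so every NASH mouse lay above both controls, HFD+F+CCl4 replicate 3 by the least. With edgeR's quasi-likelihood test and Benjamini-Hochberg adjustment over all 16663 genes tested, the 10 of 33 in HFD+F+CCl4 mice stood beside 3.86% of all genes that rose, and the 19 in WD+F+CCl4 mice beside 6.51%. All were higher. The 2 comparisons share the control mice, and the 10 are all among the 19. The median log2 difference of the members was 0.68 and 0.80, against 0.09 and 0.10 over all genes.

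The control mice gave few cells, and the mix of cells differed between control and NASH mice. The control mice had 674 and 432 mononuclear phagocytes, of which 52.4 and 34.03% were classical monocyte-like and 31.5 and 54.6% DC-like, while in NASH mice 15.4% to 47.3% were macrophage-like and 19.8% to 42.8% patrolling monocyte-like. The 9 macrophage markers, none at 0 in the control mice, summed to 1827 and 1136 CPM in the control mice and 12553 to 39737 CPM in the NASH mice, and their part in the result was not tested. The HFD+F+CCl4 count was 2 without control replicate 1, 0 without control replicate 2 and 5 without HFD+F+CCl4 replicate 2. The WD+F+CCl4 count was 5 and 4 without either control and 12 and 11 without WD+F+CCl4 replicates 1 and 3. With alternatives chosen after seeing the data, cluster 0 alone, which every mouse holds, gave 2 and 5 members, and leaving out clusters 5 and 6, led by stress genes, gave 10 and 16. Adding the unnamed clusters 26 and 27 to the phagocytes gave 29 and 28. This setting raised the control mice to 2601 and 2495 cells and left the NASH mice almost unchanged. Both clusters are led by hepatocyte genes, so these counts are not read as support.

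Among the 6 V0 genes, 1 rose in HFD+F+CCl4 and 3 in WD+F+CCl4 mice. Atp6v0c held 462 and 361 CPM in the control mice, 1231, 1003 and 1008 CPM in the HFD+F+CCl4 mice and 1079, 958 and 1029 CPM in the WD+F+CCl4 mice. Every NASH mouse was higher than both controls, and the log2 difference was 1.41 ± 0.23 (SE, adjusted p = 0.00998) in HFD+F+CCl4 and 1.39 ± 0.23 (SE, adjusted p = 0.00654) in WD+F+CCl4 mice. Atp6v0d1 held 106 and 125 CPM in the control mice, 176, 165 and 159 CPM in the HFD+F+CCl4 mice and 218, 181 and 210.0 CPM in the WD+F+CCl4 mice. It did not overlap between groups either, and its difference was 0.58 ± 0.15 (SE, adjusted p = 0.0565) in HFD+F+CCl4 and 0.92 ± 0.16 (SE, adjusted p = 0.00744) in WD+F+CCl4 mice. Atp6v0a1, for the large membrane subunit, held 32.7 and 27.8 CPM in the control mice, 86.7, 103 and 39.2 CPM in the HFD+F+CCl4 mice and 96.2, 66.9 and 86.4 CPM in the WD+F+CCl4 mice, with HFD+F+CCl4 replicate 3 close to the controls, and rose by 1.49 ± 0.40 (SE, adjusted p = 0.0407) in WD+F+CCl4 mice. Atp6v0b did not pass (0.61 and 0.75), and Atp6v0e gave -0.05 and 0.04.

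Atp6v0d2 had 2 UMIs in control replicate 1 and 0 in control replicate 2, and held 0.584 and 0 CPM in the control mice, 58.6, 14.4 and 5.93 CPM in the HFD+F+CCl4 mice and 5.14, 2.65 and 19.3 CPM in the WD+F+CCl4 mice in mononuclear phagocytes. HFD+F+CCl4 replicate 1 was the highest and WD+F+CCl4 replicate 2 the lowest NASH mouse. Pooled over mice the ratio to control was 50.6 (95% exact interval 14 to 418) in HFD+F+CCl4 and 19.1 (5.28 to 158) in WD+F+CCl4 mice, intervals that cover counting error only. Over mice edgeR's test did not pass, with adjusted p = 0.122 and 0.237.

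Among the 8 V1 genes, 2 rose in HFD+F+CCl4 and 3 in WD+F+CCl4 mice. Atp6v1c1, whose product joins the catalytic head to the stalk, held 38.3 and 36.5 CPM in the control mice, 93.1, 115 and 64.8 CPM in the HFD+F+CCl4 mice and 115, 81.9 and 102 CPM in the WD+F+CCl4 mice. All NASH mice were above the controls, and the difference was 1.28 ± 0.27 (SE, adjusted p = 0.0268) in HFD+F+CCl4 and 1.48 ± 0.28 (SE, adjusted p = 0.0104) in WD+F+CCl4 mice. Atp6v1e1, a stalk subunit gene, held 181 and 179 CPM in the control mice, 293, 298 and 309.8 CPM in the HFD+F+CCl4 mice and 272, 308 and 346 CPM in the WD+F+CCl4 mice, again with no overlap, and differed by 0.78 ± 0.18 (SE, adjusted p = 0.035) in HFD+F+CCl4 and 0.87 ± 0.18 (SE, adjusted p = 0.0165) in WD+F+CCl4 mice. Atp6v1h, a regulatory subunit gene, rose in WD+F+CCl4 mice by 0.78 ± 0.21 (SE, adjusted p = 0.0452), and its difference in HFD+F+CCl4 mice, 0.68 ± 0.21 (SE, adjusted p = 0.0887), did not pass. The other 5, including the catalytic Atp6v1a, had log2 differences of 0.10 to 0.73 over both models and did not pass. Of the accessory subunit genes, Atp6ap1 rose in WD+F+CCl4 mice by 0.70 ± 0.16 (SE, adjusted p = 0.0214), and Atp6ap2 gave 0.68 and 0.68 without passing.

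**Figure D3:**
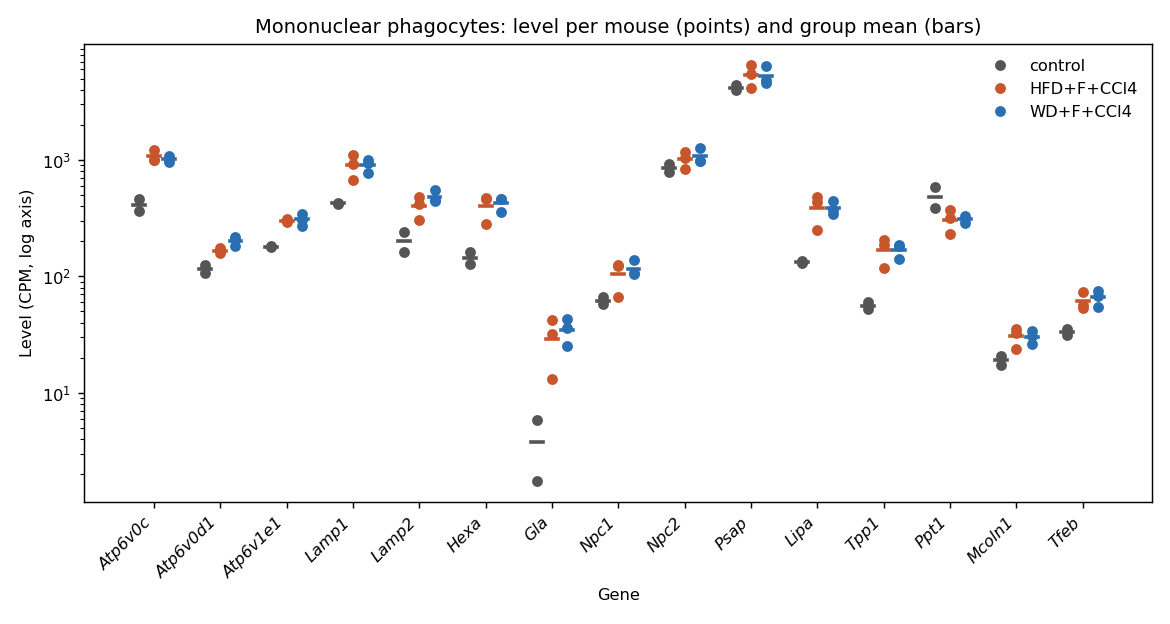
Level in CPM (vertical log axis) of 15 of the genes in mononuclear phagocytes, with 1 point per mouse and a bar at the group mean, by group in colour. For Atp6v0c, Lamp1, Hexa, Lipa and Tpp1 all NASH points lie above both control points, for Psap and Npc2 the groups lie close or overlap, and for Ppt1 the control points are the 2 highest.

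Both LAMP genes rose in WD+F+CCl4 mice and Lamp1 in HFD+F+CCl4 mice too. Lamp1 held 430.4 and 420.3 CPM in the control mice, 1105, 918 and 669 CPM in the HFD+F+CCl4 mice and 934, 779.8 and 998 CPM in the WD+F+CCl4 mice. HFD+F+CCl4 replicate 3 was the lowest NASH mouse and still above the controls, and the difference was 1.10 ± 0.23 (SE, adjusted p = 0.0248) in HFD+F+CCl4 and 1.19 ± 0.23 (SE, adjusted p = 0.0128) in WD+F+CCl4 mice. Lamp2 held 239 and 162 CPM in the control mice, 478, 420.4 and 308 CPM in the HFD+F+CCl4 mice and 557, 441 and 452 CPM in the WD+F+CCl4 mice, with no overlap, and differed by 1.00 ± 0.27 (SE, adjusted p = 0.058) in HFD+F+CCl4 and 1.33 ± 0.27 (SE, adjusted p = 0.0156) in WD+F+CCl4 mice. In the cholesterol export pair the membrane protein gene passed and its soluble partner did not. Npc1 held 57.6 and 66 CPM in the control mice, 122, 127 and 66.6 CPM in the HFD+F+CCl4 mice and 138, 107 and 104 CPM in the WD+F+CCl4 mice, with HFD+F+CCl4 replicate 3 almost level with control replicate 2, and differed by 0.80 ± 0.28 (SE, adjusted p = 0.114) in HFD+F+CCl4 and 1.02 ± 0.28 (SE, adjusted p = 0.0444) in WD+F+CCl4 mice. Npc2 held 933 and 789 CPM in the control mice, 1161, 1046 and 831 CPM in the HFD+F+CCl4 mice and 1262, 989 and 978 CPM in the WD+F+CCl4 mice, in overlapping ranges, and differed by 0.26 ± 0.23 (SE, adjusted p = 0.537) in HFD+F+CCl4 and 0.42 ± 0.23 (SE, adjusted p = 0.284) in WD+F+CCl4 mice. The difference between Npc1 and Npc2 was not tested.

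Of the 6 glycosidase genes, Gla, Hexa and Neu1 rose in both models and Glb1 and Gusb in WD+F+CCl4 mice. Gla, the alpha-galactosidase gene that is deficient in Fabry disease, held 5.84 and 1.74 CPM in the control mice, 42.2, 32.1 and 13.04 CPM in the HFD+F+CCl4 mice and 42.7, 25.03 and 35.7 CPM in the WD+F+CCl4 mice. The control values rest on 20 UMIs and 1 UMI, all NASH mice were higher, and the difference was 2.49 ± 0.62 (SE, adjusted p = 0.0448) in HFD+F+CCl4 and 2.82 ± 0.62 (SE, adjusted p = 0.0206) in WD+F+CCl4 mice. Pooled, Gla was 5.42 (95% exact interval 3.54 to 8.76) and 6.67 times (4.36 to 10.8) the control level. Hexa, for the alpha subunit of beta-hexosaminidase, held 162 and 127 CPM in the control mice, 475, 460.4 and 284 CPM in the HFD+F+CCl4 mice and 463, 355 and 461 CPM in the WD+F+CCl4 mice, without overlap, and differed by 1.49 ± 0.27 (SE, adjusted p = 0.0152) in HFD+F+CCl4 and 1.63 ± 0.27 (SE, adjusted p = 0.00735) in WD+F+CCl4 mice. Neu1, a sialidase gene, held 33.3 and 36.5 CPM in the control mice, 81.9, 61 and 57.4 CPM in the HFD+F+CCl4 mice and 70.7, 59.7 and 71.5 CPM in the WD+F+CCl4 mice, and rose by 0.96 ± 0.18 (SE, adjusted p = 0.0165) in HFD+F+CCl4 and 1.04 ± 0.18 (SE, adjusted p = 0.00805) in WD+F+CCl4 mice. Glb1, the beta-galactosidase gene, held 15.8 and 17.4 CPM in the control mice, 58.1, 43.2 and 23 CPM in the HFD+F+CCl4 mice and 37.6, 34.7 and 49.5 CPM in the WD+F+CCl4 mice. It was higher in all NASH mice, with a difference of 1.33 ± 0.37 (SE, adjusted p = 0.064) in HFD+F+CCl4 and 1.38 ± 0.37 (SE, adjusted p = 0.0422) in WD+F+CCl4 mice. Gusb, for beta-glucuronidase, rose by 0.68 ± 0.19 (SE, adjusted p = 0.0473) in WD+F+CCl4 mice, and Man2b1 did not pass (0.59 and 0.66).

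Lipa and Tpp1 rose among the other hydrolases and activators, while Psap, Asah1 and Ppt1 did not pass. Lipa, the acid lipase that frees cholesterol from its esters, held 136 and 130.3 CPM in the control mice, 433, 484 and 253 CPM in the HFD+F+CCl4 mice and 373, 346 and 447 CPM in the WD+F+CCl4 mice. It rose in both models without overlap, by 1.57 ± 0.28 (SE, adjusted p = 0.0137) in HFD+F+CCl4 and 1.63 ± 0.28 (SE, adjusted p = 0.00761) in WD+F+CCl4 mice. Tpp1, a tripeptidyl peptidase gene, held 60.2 and 52.1 CPM in the control mice, 206, 185 and 117 CPM in the HFD+F+CCl4 mice and 182, 140.5 and 185 CPM in the WD+F+CCl4 mice, and rose by 1.58 ± 0.26 (SE, adjusted p = 0.0109) in HFD+F+CCl4 and 1.65 ± 0.26 (SE, adjusted p = 0.00607) in WD+F+CCl4 mice. Psap held 3979 and 4399 CPM in the control mice, 6579, 5499.9 and 4118 CPM in the HFD+F+CCl4 mice and 6472, 4607 and 4875 CPM in the WD+F+CCl4 mice. HFD+F+CCl4 replicate 3 lay between the controls, and the differences did not pass, at 0.40 ± 0.28 (SE, adjusted p = 0.406) in HFD+F+CCl4 and 0.46 ± 0.28 (SE, adjusted p = 0.325) in WD+F+CCl4 mice. Ppt1 held 384 and 587 CPM in the control mice, 231, 374 and 315 CPM in the HFD+F+CCl4 mice and 286, 330.4 and 313 CPM in the WD+F+CCl4 mice, with control replicate 2 highest, and had negative estimates, -0.57 ± 0.25 (SE, adjusted p = 0.199) in HFD+F+CCl4 and -0.51 ± 0.25 (SE, adjusted p = 0.218) in WD+F+CCl4 mice, which did not pass either. Asah1 gave 0.51 and 0.58.

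Tfeb and Mcoln1, the regulator and the lysosomal calcium channel, were low genes that were higher in every NASH mouse. Tfeb held 35.4 and 31.3 CPM in the control mice, 73.1, 53.8 and 56.8 CPM in the HFD+F+CCl4 mice and 74.9, 68.5 and 54.6 CPM in the WD+F+CCl4 mice, and rose by 0.86 ± 0.22 (SE, adjusted p = 0.047) in HFD+F+CCl4 and 1.03 ± 0.22 (SE, adjusted p = 0.0176) in WD+F+CCl4 mice. Mcoln1 held 17.2 and 20.8 CPM in the control mice, 35.6, 32.9 and 23.8 CPM in the HFD+F+CCl4 mice and 30.9, 26.3 and 33.96 CPM in the WD+F+CCl4 mice. Its difference was 0.75 ± 0.21 (SE, adjusted p = 0.064) in HFD+F+CCl4 and 0.80 ± 0.21 (SE, adjusted p = 0.0391) in WD+F+CCl4 mice, so it passed in the WD+F+CCl4 comparison.

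Between the models no difference passed. Of the 33 members 0 passed edgeR's test (0% of all genes did), and DESeq2 also called 0 members. At an unadjusted p under 0.05 there were 2 members, Atp6v0d1 and Atp6ap1, and 1083 of 16663 genes. For Atp6v0d1 the log2 difference was 0.35 (95% interval 0.05 to 0.64) and for Atp6ap1 0.34 (0.04 to 0.64), both higher in WD+F+CCl4. For Lamp1 it was 0.08 (-0.36 to 0.53) and for Atp6v0d2 -1.42 (-3.33 to 0.48). The log2 differences were 0.34 for Lamp2, 0.22 for Npc1, 0.16 for Npc2, 0.05 for Psap, 0.06 for Lipa, 0.05 for Mcoln1 and 0.18 for Tfeb, and their 95% intervals lay within -0.51 to 0.86.

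Lysosomal genes outside the 33 were read beside them. Of 22 other hydrolases and activators, 11 rose and 2 fell in HFD+F+CCl4 and 13 rose and 2 fell in WD+F+CCl4 mononuclear phagocytes, where 3.73% and 6.28% of all genes fell. Acp5, the tartrate-resistant acid phosphatase gene, differed by 4.33 ± 0.39 and 3.80 ± 0.39 (log2, SE), Acp2, the lysosomal acid phosphatase gene, by 2.62 ± 0.24 and 2.46 ± 0.24, and the lysosomal phospholipase gene Pla2g15 by 2.25 ± 0.43 and 2.46 ± 0.44. The sulfatase gene Arsb fell by 1.99 ± 0.29 and 2.40 ± 0.29. Of 13 lysosomal membrane genes 3 and 5 rose, with Cd63, a tetraspanin of late endosomes, at 2.86 ± 0.38 and 2.06 ± 0.37, and of 15 regulators 2 and 2 rose, Mitf, a relative of Tfeb (1.45 ± 0.18 and 1.44 ± 0.18), and Lamtor1, a part of the lysosomal mTORC1 anchor (0.99 ± 0.20 and 1.06 ± 0.20). Of 12 further V-ATPase and assembly genes 7 were tested, 0 rose, and Rogdi, an assembly factor gene, fell by 1.16 ± 0.28 in WD+F+CCl4 mice.

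Within single classes the mean of both NASH models was set against control, tested in edgeR as above, with up to 6 NASH mice and the 2 controls. In classical monocyte-like cells 6 of 32 members tested rose, where 5.13% of all genes did. The median log2 difference of the 32 members tested was 0.40, against 0.04 over all 11341 genes. Atp6v0c held 524 and 416 CPM in the control mice and 796 to 1054 CPM in the NASH mice (median 909) and differed by 0.96 ± 0.20 (SE, adjusted p = 0.0134). Ppt1, with negative estimates in the mixed phagocytes, held 139 and 157 CPM in the control mice and 190.2 to 289 CPM in the NASH mice (median 244) here and rose by 0.75 ± 0.19 (SE, adjusted p = 0.0294). The groups did not overlap for either. Atp6v1e1 held 235 and 223 CPM in the control mice and 316 to 428 CPM in the NASH mice (median 407) and rose by 0.79 ± 0.19 (SE, adjusted p = 0.0255), and Lamp2 held 312 and 325 CPM in the control mice and 421 to 639 CPM in the NASH mice (median 505) and rose by 0.71 ± 0.17 (SE, adjusted p = 0.0262). Atp6v0d1 (0.71) and Neu1 (0.68) also rose, while Psap, with an estimate of 0.23, and Npc2, with -0.05, did not pass. The control cells came almost wholly from cluster 24 and those of NASH mice from cluster 2, macrophage markers summed to 2095 and 1814 CPM in the control mice and 3386 to 8072 CPM in the NASH mice, and their part was not tested. Without either control mouse 1 member passed.

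In dendritic cell-like cells 4 of 32 members rose, where 3.64% of all genes did, while the summed level was 8303 and 9253 CPM in the control mice and 7125 to 9426 CPM in the NASH mice and did not separate the groups. The median log2 difference of the 32 members tested was 0.30, against 0.01 over all 11276 genes. Atp6v0c held 277 and 257 CPM in the control mice and 490.2 to 630.4 CPM in the NASH mice (median 606) and rose by 1.16 ± 0.17 (SE, adjusted p = 0.00301). Lamp2 held 107 and 55.5 CPM in the control mice and 138 to 205 CPM in the NASH mice (median 166) and rose by 0.95 ± 0.23 (SE, adjusted p = 0.0297), and Hexa held 108 and 119.7 CPM in the control mice and 166 to 201 CPM in the NASH mice (median 175) and rose by 0.69 ± 0.15 (SE, adjusted p = 0.018). In all 3 the NASH mice lay above both controls. Tfeb held 24.9 and 32.1 CPM in the control mice and 39.5 to 60.4 CPM in the NASH mice (median 51.98) and rose by 0.90 ± 0.23 (SE, adjusted p = 0.0357). Psap went the other way without passing, at 3506 and 4289 CPM in the control mice and 1870.0 to 3444 CPM in the NASH mice (median 2524) and a difference of -0.58 ± 0.16 (SE, adjusted p = 0.052). Ppt1, highest of all classes here, was at 355, 392 and 766 CPM in the WD+F+CCl4 mice, with replicates 1 and 2 below the controls and the HFD+F+CCl4 mice (685 to 870.1 CPM). Macrophage markers summed to 533 and 543 CPM in the control mice and 1575 to 5133 CPM in the NASH mice, and their part was not tested. With DESeq2 and with library sizes in place of TMM, 3 members were higher and 1 was lower. The count was 1 without control replicate 2 and 2 without any 1 of HFD+F+CCl4 replicate 3 and WD+F+CCl4 replicates 1 and 2.

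In neutrophil-like cells 13 of 33 members rose, where 4.96% of all genes did. Over the 33 members tested the log2 differences had a median of 0.71, against 0.20 over all 11295 genes. The sum went from 5383 and 5517 CPM in the control mice to 8685 to 11333 CPM in the NASH mice. Gusb held 33.6 and 58.1 CPM in the control mice and 99.2 to 139.9 CPM in the NASH mice (median 116) and rose by 1.73 ± 0.30 (SE, adjusted p = 0.0059). Lamp1 held 190.4 and 174 CPM in the control mice and 465 to 703 CPM in the NASH mice (median 526) and rose by 1.65 ± 0.28 (SE, adjusted p = 0.00582). All NASH mice were above the controls in both. Psap held 921 and 1452 CPM in the control mice and 2159 to 3865 CPM in the NASH mice (median 2814) and rose by 1.61 ± 0.32 (SE, adjusted p = 0.012), and Lipa, at 76.2 and 87.1 CPM in the control mice and 184 to 247 CPM in the NASH mice (median 216), rose by 1.53 ± 0.28 (SE, adjusted p = 0.00774). Atp6v1a, the catalytic V1 subunit gene, rose by 1.45 ± 0.27 (SE, adjusted p = 0.00885), and the remaining 8 were Atp6v0c, Atp6v1c1, Atp6v1e1, Lamp2, Hexa, Npc2, Asah1 and Tpp1 (0.97 to 1.38). Control replicate 2 had 22 neutrophil-like cells, in which 1 UMI is worth 29.04 CPM, and without control replicate 1 there were 0 members, and 7, 8, 5 and 6 without HFD+F+CCl4 replicates 2 and 3 and WD+F+CCl4 replicates 1 and 2. Macrophage markers summed to 1136 and 1162 CPM in the control mice and 3333 to 10901 CPM in the NASH mice, and their part was not tested.

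In T cell-like cells 10 of 33 members rose, where 6.63% of all genes did. The median log2 difference of the 33 members tested was 0.48, against -0.0035 over all 12810 genes. Hexa held 41.1 and 48.5 CPM in the control mice and 84.7 to 132 CPM in the NASH mice (median 105) and rose by 1.37 ± 0.19 (SE, adjusted p = 0.00254). Lamp1 held 106 and 158 CPM in the control mice and 226 to 401 CPM in the NASH mice (median 243) and rose by 1.16 ± 0.23 (SE, adjusted p = 0.0127). The groups did not overlap for either, with HFD+F+CCl4 replicate 1 highest for Lamp1. Gla held 3.31 and 5.75 CPM in the control mice and 7.701 to 19.3 CPM in the NASH mice (median 9.598) and rose by 1.47 ± 0.42 (SE, adjusted p = 0.0472), and Lipa held 52.7 and 43.5 CPM in the control mice and 75.1 to 128 CPM in the NASH mice (median 92.9) and rose by 1.08 ± 0.25 (SE, adjusted p = 0.0223). Atp6v0c, Asah1, Atp6v1e1, Psap, Npc2 and Gusb rose by 0.68 to 0.94. Macrophage markers summed to 541 and 809 CPM in the control mice and 2921 to 10267 CPM in the NASH mice, and the membrane genes Cd68, a macrophage marker outside the list, and Cd63 rose by 2.83 ± 0.25 and 3.38 ± 0.28. Their part was not tested. Control cells came mostly from cluster 21 and those of NASH mice from clusters 9 and 18. Cluster 25, led by Tcf7 and Lef1, scored best for T cell markers but stayed unnamed and entered no class. Of its 631 cells, 605 came from control replicate 1. Without control replicates 1 and 2 the count was 1 and 3, and with library sizes in place of TMM 6.

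B cell-like cells gave 9 of 32 members that rose, where 6.05% of all genes did. Over the 32 members tested the log2 differences had a median of 0.55, against 0.0016 over all 9761 genes. Hexa held 34.7 and 35.1 CPM in the control mice and 58.4 to 162 CPM in the NASH mice (median 138) and rose by 2.06 ± 0.27 (SE, adjusted p = 0.000228). Npc2 held 137 and 165 CPM in the control mice and 226 to 445 CPM in the NASH mice (median 326) and rose by 1.36 ± 0.23 (SE, adjusted p = 0.00121). Lipa, the acid lipase gene, held 50.8 and 24.3 CPM in the control mice and 65.7 to 117 CPM in the NASH mice (median 98.1) and rose by 1.34 ± 0.26 (SE, adjusted p = 0.00387), and Lamp1 held 107 and 146 CPM in the control mice and 197 to 315 CPM in the NASH mice (median 274) and rose by 1.26 ± 0.20 (SE, adjusted p = 0.001). In each of the 4 the lowest NASH value was that of HFD+F+CCl4 replicate 3, the mouse with 32 B cell-like cells, and it still exceeded both controls. Asah1, Psap, Atp6v0c, Gusb and Atp6v1e1 rose by 0.85 to 1.23. Macrophage markers summed to 957 and 862 CPM in the control mice and 1015 to 15361 CPM in the NASH mice, with HFD+F+CCl4 replicate 3 lowest among NASH mice, Cd68 rose by 3.28 ± 0.32, and their part was not tested. Control cells came mostly from cluster 20 and those of NASH mice from cluster 12, whose leading genes are of immunoglobulins, and without control replicate 1 the count was 3.

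Endothelial cell-like cells gave 0 of 32 members that passed edgeR's test in either direction, where 2.81% of all genes did, and DESeq2 also gave 0. At an unadjusted p under 0.05 there were 9 members and 1585 genes. Over the 32 members tested the log2 differences had a median of 0.37, against 0.04 over all 10900 genes. This fit has 7 mice, because WD+F+CCl4 replicate 1 had 9 such cells. Atp6v0c held 306 and 319 CPM in the control mice and 425 to 695 CPM in the NASH mice (median 651) and differed by 1.01 ± 0.32 (SE, adjusted p = 0.148). Its controls lay below every NASH mouse, and the 95% interval, 0.31 to 1.71, includes the differences seen in the other classes. Lamp2, whose median over mice of all groups was highest here, held 601 and 756 CPM in the control mice and 281 to 731 CPM in the NASH mice (median 552), with overlapping groups and a difference of -0.18 ± 0.36 (SE, adjusted p = 0.91). Over NASH mice alone its median was higher in Kupffer cell-like cells, at 562 CPM. Macrophage markers summed to 3548 and 3722 CPM in the control mice and 5063 to 14680.1 CPM in the NASH mice, and none of the 9 was at 0 in the control mice of the 6 classes tested.

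**Figure D4:**
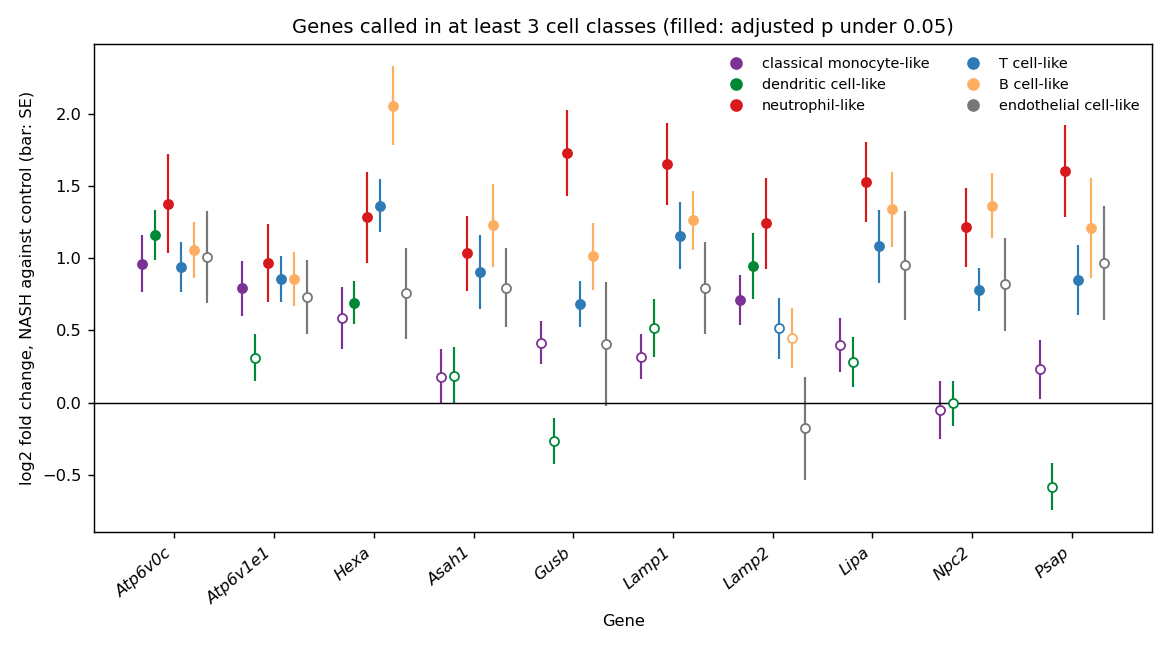
Log2 fold change of NASH against control (vertical axis, bars: SE) for the 10 genes that passed in at least 3 of the 6 classes tested, by class in colour, filled where the adjusted p is under 0.05. Atp6v0c is filled in 5 classes and open in endothelial cell-like cells, Psap and Gusb lie below 0 in dendritic cell-like cells, and Hexa is highest in B cell-like cells.

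Set side by side over the 6 classes, 15 members passed in none (14 were tested in all 6, Atp6v0d2 in 2), 8 passed in 1, 7 in 3, 2 in 4 and 1 in 5. Atp6v0c was the one that passed in 5, with log2 differences of 0.94 to 1.38 over all 6. Atp6v1e1 (0.31 to 0.97) and Hexa (0.58 to 2.06) passed in 4. Asah1, Gusb, Lamp1, Lipa, Npc2 and Psap passed in neutrophil-, T cell- and B cell-like cells, and Lamp2 in classical monocyte-, dendritic cell- and neutrophil-like cells. Atp6v0b, Atp6v0e, Atp6v1d, Atp6v1f, Atp6v1g1, Atp6ap1 and Atp6ap2 passed in none, with estimates from -0.12 to 0.64. Some others that passed in none had larger estimates, with Glb1 at 0.45 to 2.27, Atp6v1h at 0.02 to 0.90 and Atp6v0a1 at -0.14 to 0.78. Npc1, Mcoln1, Atp6v0a1, Atp6v1h, Atp6ap1 and Glb1 passed in none of the 6 although all rose in WD+F+CCl4 mononuclear phagocytes. Differences between classes were not tested.

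Patrolling monocyte-like cells could not be tested, because the control mice had 30 and 13 of them. Control replicate 1 held a sum of 8987 CPM, inside the NASH range of 8636 to 11287 CPM, and 2626 CPM for the 14 sector subunits, where the NASH mice held 2663 to 2809.9 CPM. Atp6v0c held 274 CPM in that control mouse and 451 to 593 CPM in the NASH mice, and Tfeb 27.4 and 71.1 to 107 CPM. The control value of Tfeb rests on 2 UMIs. Over the 33 members the control value lay below every NASH mouse for 18, Atp6v0c and Tfeb included, among them for 7, with Lamp2 at 410.4 against 298 to 448 CPM, and above every NASH mouse for 8. Those 8 were Atp6v0b (397 against 309 to 359 CPM), Atp6v0d1, Atp6v0e (451 against 307 to 402 CPM), Atp6v1a, Atp6v1f, Atp6v1g1, Man2b1 and Mcoln1, the last on 3 UMIs. In this control mouse 1 UMI is worth 13.7 CPM. Of the members below every NASH mouse, Atp6v0d2, Gla and Glb1 held 0 UMIs in it and Atp6v0a1 held 1. The same positions were not counted over all genes, so these counts are not read as a result about the members.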

How the data were processed

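The deposited values were UMI counts per gene and cell, which the authors made with Cell Ranger against the mouse genome (GRCm38), after base calling with bcl2fastq 2.20, per the labels and methods. The liver cells of 8 mice (2 control, 3 HFD+F+CCl4, 3 WD+F+CCl4) were read from 1 matrix, and the groups came from the labels. Cells with more than 500 genes and under 25% mt- UMIs were kept, 7452 likely doublets were marked by rank in scanpy 1.11.5 and left in place (an alternative left them out), and Leiden clustering at resolution 0.8, on variable genes without the members, gave 28 clusters, of which 3, with 4623 cells, stayed unnamed. Counts were summed per mouse and class (at least 20 cells), filtered with filterByExpr (minimum count 10), scaled by TMM and tested with the edgeR 4.0.16 quasi-likelihood test in R 4.3.3, with Benjamini-Hochberg adjustment over all genes tested and a threshold of 0.05. The mononuclear phagocyte fit and the class fits held all 3 groups, and the class contrast was the mean of both NASH models minus control. P-values weigh a group difference against the spread between these mice, estimated jointly over the groups and with information shared between genes. With 2 control mice, the control spread is mostly taken from the other mice and genes. Members and lists were chosen with earlier results of these data known. Named were the called members with the largest differences (up to 8 per direction in mononuclear phagocytes and 4 per class), and 10 members in every phagocyte comparison. Pooled ratios have exact binomial 95% intervals for counting error. DESeq2 1.42.0, other scalings, filters, clusterings, thinning and left-out mice were run as alternatives, and the scripts were tested on simulated counts. Values of 2 genes of the further hydrolase list are not reported here.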

Additional observations from a re-analysis of the deposited data

How the results depend on the processing

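The members called in mononuclear phagocytes were higher than control under all alternatives but thinning, where 1 of the WD+F+CCl4 calls was lower, and their number moved. In HFD+F+CCl4 against control (10 members) it was 17 with DESeq2, 5 with the control and HFD+F+CCl4 mice alone, 2 at Leiden resolution 1.2, 1 in the monocyte-like clusters alone and 6 after thinning to the smallest sum. In WD+F+CCl4 against control (19 members) it was 10, 4 and 11 under the last 3. In T cell-like cells the number of members was 6 with library sizes in place of TMM (10 members). Alternatives chosen after seeing the data gave 2 and 5 members in cluster 0 alone and 29 and 28 with the unnamed clusters 26 and 27 added. The unnamed clusters add almost only control cells, led by hepatocyte genes, so the last counts are not read as support. The causes were not tested, beyond the smaller number of cells or groups in the settings that leave some out. Left-out mice gave 0 to 13 and 4 to 17 members in the phagocyte comparisons with control, 1 to 6 in classical monocyte-like, 1 to 6 in dendritic cell-like, 0 to 12 in neutrophil-like, 1 to 11 in T cell-like and 3 to 11 in B cell-like cells. Where a control mouse was left out, the lone control was assumed to vary like the other groups. In WD+F+CCl4 against HFD+F+CCl4 and in endothelial cell-like cells the number was 0 under every alternative run. The difference of the summed level in mononuclear phagocytes was 4294 CPM for HFD+F+CCl4 (3273 to 5593 without single mice), 4509 CPM for WD+F+CCl4 (3661 to 5307, and 2554 CPM without the 3 highest members) and 215 CPM between the models (-1084 to 1236).

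Same-numbered mice did not deviate together (correlations of -0.52 to 0.068), so the numbers were not read as pairs. Mice with different numbers had correlations of -0.39 to 0.51. The highest were 0.51 for HFD+F+CCl4 replicate 1 with WD+F+CCl4 replicate 3 and 0.45 for HFD+F+CCl4 replicate 3 with WD+F+CCl4 replicate 2. HFD+F+CCl4 replicate 1 and WD+F+CCl4 replicate 3 also held most cells of both clusters led by stress genes. The cause was not tested. Deviations of the control mice mirror each other, so their correlations are not separate. A fit with the replicate number as a block gave 6 and 12 members in the phagocyte comparisons with control, 1 in classical monocyte-like, 1 in dendritic cell-like and 6 in T cell-like cells.

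Signs turned for members that had not passed. Against control in the monocyte-like clusters alone, Psap was -0.26, Npc2 -0.98 and Npc1 -0.29 in HFD+F+CCl4 mice and Npc2 -0.30 in WD+F+CCl4 mice. These clusters pool classical and patrolling monocyte-like cells. Of them 353 of 383 and 147 of 160 were classical in the control mice. In HFD+F+CCl4 mice 336 of 3241, 324 of 1976 and 706 of 3833 were, and in WD+F+CCl4 mice 1685 of 2881, 1249 of 2811 and 1062 of 2735. The part of this mix was not tested. Between the models, where estimates were near 0, library sizes gave -0.022 for Psap, -0.019 for Mcoln1 and -0.0060 for Lipa, and thinning gave -0.016 for Psap, -0.024 for Lamp1, -0.093 for Tfeb and -0.0024 for Lipa. Without clusters 5 and 6 Psap was -0.098, Lamp1 -0.033 and Lipa -0.035, and in cluster 0 alone Mcoln1 was -0.14 and Lipa -0.17. Leaving out single mice gave -0.13 to 0.16 for Psap, -0.071 to 0.14 for Mcoln1, -0.057 to 0.21 for Lamp1 and -0.15 to 0.28 for Lipa. Among single members, 815 of the values tried for those that had passed still passed and 356 did not, all in the same direction. In B cell-like cells library sizes shifted the median of all genes by -0.15. The control mice limit depth most, with 1 UMI in mononuclear phagocytes worth 0.292 and 1.74 CPM in controls 1 and 2.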

Other observations

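The lysosomal lists outside the 33 genes were also counted in the single classes, for NASH against control mice in edgeR's quasi-likelihood test with Benjamini-Hochberg adjustment. Of 22 further hydrolases and activators, 4 rose and 2 fell in classical monocyte-like cells, 2 rose and 1 fell in dendritic cell-like cells, and 4, 8, 6 and 1 rose in neutrophil-, T cell-, B cell- and endothelial cell-like cells. Of all genes tested, 5.13%, 3.64%, 4.96%, 6.63%, 6.05% and 0.761% rose in these 6 classes in that order, and 4.74% and 4.27% fell in classical monocyte-like and dendritic cell-like cells. Acp2, the lysosomal acid phosphatase gene, rose by 1.88 ± 0.28 (log2, SE) in classical monocyte-like, 2.76 ± 0.66 in neutrophil-like, 1.93 ± 0.30 in T cell-like and 2.42 ± 0.34 in B cell-like cells. Acp5, the tartrate-resistant phosphatase gene, rose by 3.81 ± 0.48 in classical monocyte-like and 2.92 ± 0.33 in dendritic cell-like cells. Arsb, a sulfatase gene, fell by 1.83 ± 0.25 in classical monocyte-like and by 1.40 ± 0.35 in dendritic cell-like cells. Of 12 further V-ATPase and assembly genes, 6 or 7 were tested per class, and 0 rose in any class. In neutrophil-like and B cell-like cells 1 each fell, where 3.82% and 4.27% of all genes fell. The median log2 difference of this V-ATPase list was 0.14, -0.11, -0.43, -0.36, -0.06 and -0.17 in the 6 classes, in the same order.

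Of 13 lysosomal membrane genes, 2, 3, 2, 3, 4 and 2 rose in classical monocyte-, dendritic cell-, neutrophil-, T cell-, B cell- and endothelial cell-like cells, beside the shares of all genes given above. Laptm5, a lysosomal membrane protein of blood cells, rose by 0.67 ± 0.17, 0.65 ± 0.16, 0.65 ± 0.16 and 0.85 ± 0.21 in classical monocyte-, dendritic cell-, T cell- and B cell-like cells. Of 15 regulators, Lamtor1 rose in classical monocyte-, dendritic cell-, neutrophil- and T cell-like cells, by 0.67 ± 0.16 in the last, and Mitf by 1.88 ± 0.37 in T cell-like and 2.60 ± 0.78 in B cell-like cells. Macrophage markers were higher in NASH mice in all these classes, as given above, and their part was not tested.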
